A study of Mus musculus with 2 samples.

Results

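Interferon-high alveolar macrophages were cells with the transcripts of lung alveolar macrophages that also carried many transcripts of 6 genes induced by interferon. They were chosen by their counts of unique molecular identifiers (UMIs, the counted messenger RNA molecules). Of 10901 barcodes, 10088 passed the quality filters, with at most 20% mitochondrial UMIs, at most 20000 UMIs and at least 500 genes. A cell was taken as an alveolar macrophage when Chil3, Ear1 and Krt79 together reached 10 UMIs per 10000, the complement genes C1qa, C1qb and C1qc together stayed under 5 UMIs, Cd209a, Xcr1 and Ccr7 were at 0, and 6 cell cycle genes together stayed under 5 UMIs. This left 4982 cells. Of these, the 182 in which Ifit1, Ifit2, Ifit3, Isg15, Rsad2 and Cxcl10 together reached 20 UMIs per 10000 were the interferon-high cells, and the other 4800 are called below the cut. Because the rule used 21 genes of the same cells, the levels of those genes describe how the cells were picked and were not tested.

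The cells came from lungs of female, age-matched C57BL/6J mice, with 8 mice pooled for each treatment, so each treatment is 1 pool. Mice of the tolerance pool inhaled ovalbumin (OVA) before they were sensitized and challenged. Mice of the asthma pool were sensitized to OVA with the aluminium adjuvant Alum by intraperitoneal injection and challenged with intranasal OVA. Mice of the control pool received Alum without OVA and intranasal saline. Dendritic cells (DCs) and macrophages were sorted by flow cytometry, so the number of macrophages also follows the sort. Hashtag antibodies marked the pool of origin, a further antibody tag read the surface lectin CLEC12A, and the mixed cells, in equal numbers per pool, ran on 2 lanes, which are technical replicates. The 6 matrices of lane and pool held between 7897139 and 11459855 UMIs, and 0 barcodes were shared between them. The interferon-high cells held 560849 UMIs in the tolerance pool (median 6212 per cell) and 450743 in the asthma pool (median 4608.5). The cells below the cut held 4495584, 7789346 and 12462156 UMIs in the tolerance, asthma and control pools, with medians of 5405, 4398 and 4940 per cell.

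Alveolar macrophages live in the air spaces, where they clear surfactant and inhaled particles. Interferons bind receptors on the cell surface, Janus kinases then phosphorylate transcription factors, and a complex of these that holds IRF9 binds the interferon-stimulated response element (ISRE) in promoters. The genes switched on in this way encode antiviral effectors, guanylate-binding proteins, antigen presentation machinery and chemokines. Interferon-gamma acts mainly through another promoter element, the gamma-activated site (GAS).

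The promoters of 5 marker genes of these cells are shown because most of them carry the core of the ISRE. They are Ifit1, which binds viral RNA lacking host cap marks, Isg15, a ubiquitin-like modifier, Rsad2, which encodes viperin, an enzyme that makes a chain-terminating nucleotide, Gbp2, a guanylate-binding protein, and Ch25h, which makes 25-hydroxycholesterol. Each is the RefSeq sequence of GRCm38.p6 from 250 bases before to 50 bases after the start of the gene, read 5′ to 3′ on the strand of the gene, with matches to the ISRE core (GAAA, any 2 bases, GAAA, on either strand) in capitals. Ifit1 is at chr19:34640639-34640938 on the plus strand, Isg15 at chr4:156200769-156201068 on the minus strand, Rsad2 at chr12:26456403-26456702 on the minus strand, Gbp2 at chr3:142620413-142620712 on the plus strand and Ch25h at chr19:34475099-34475398 on the minus strand.
Ifit1: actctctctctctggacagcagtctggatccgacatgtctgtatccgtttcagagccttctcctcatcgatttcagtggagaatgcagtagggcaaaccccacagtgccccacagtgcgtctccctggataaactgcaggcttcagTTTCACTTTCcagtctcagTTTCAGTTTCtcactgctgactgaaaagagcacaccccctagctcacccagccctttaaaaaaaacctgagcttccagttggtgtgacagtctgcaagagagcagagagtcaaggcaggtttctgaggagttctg
Isg15: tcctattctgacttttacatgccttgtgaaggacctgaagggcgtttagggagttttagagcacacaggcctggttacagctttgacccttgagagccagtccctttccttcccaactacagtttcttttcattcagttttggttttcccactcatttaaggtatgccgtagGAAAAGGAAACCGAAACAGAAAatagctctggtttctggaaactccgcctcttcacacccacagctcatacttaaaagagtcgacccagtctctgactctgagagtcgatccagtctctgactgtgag
Rsad2: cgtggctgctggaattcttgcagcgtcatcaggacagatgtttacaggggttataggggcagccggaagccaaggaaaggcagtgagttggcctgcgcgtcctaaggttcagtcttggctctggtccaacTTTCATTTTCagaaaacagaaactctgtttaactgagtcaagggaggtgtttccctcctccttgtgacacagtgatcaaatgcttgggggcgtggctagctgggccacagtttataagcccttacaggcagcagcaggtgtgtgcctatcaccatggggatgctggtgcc
Gbp2: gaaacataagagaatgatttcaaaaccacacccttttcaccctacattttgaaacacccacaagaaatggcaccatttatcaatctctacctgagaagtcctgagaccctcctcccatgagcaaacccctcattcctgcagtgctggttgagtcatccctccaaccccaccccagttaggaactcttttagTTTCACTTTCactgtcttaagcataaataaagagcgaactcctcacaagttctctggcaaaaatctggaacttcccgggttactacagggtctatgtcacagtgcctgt
Ch25h: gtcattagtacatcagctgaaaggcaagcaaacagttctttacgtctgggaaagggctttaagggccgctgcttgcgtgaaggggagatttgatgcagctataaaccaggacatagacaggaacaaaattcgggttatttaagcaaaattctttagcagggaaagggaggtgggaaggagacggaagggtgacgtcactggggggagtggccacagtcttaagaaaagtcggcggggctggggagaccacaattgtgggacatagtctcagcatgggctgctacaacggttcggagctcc
Ifit1 had 2 matches, both on the opposite strand, between positions -104 and -76 from the start. Isg15 had 3 overlapping matches between -78 and -57, and Rsad2 and Gbp2 had 1 each, at -120 to -111 and at -59 to -50. The Ch25h window had 0, and none of these 5 windows held the GAS core (TTCNNNGAA). These are matches of letters, and binding was not measured.

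The interferon-high cells were found almost entirely in mice exposed to OVA. They made up 9.81% of the gated alveolar macrophages of the tolerance pool (87 of 887, 95% exact Clopper-Pearson interval 7.93 to 11.96), 5.41% of those of the asthma pool (94 of 1737, 4.39 to 6.58) and 0.0424% of those of the control pool (1 of 2358). The lanes gave 9.27% and 10.4% in the tolerance pool and 5.08% and 5.75% in the asthma pool. In the control pool lane 1 had 0 of 1204 cells, which allows a share of up to 0.249%, and lane 2 had 1 of 1154. The lanes of the tolerance pool lay above those of the asthma pool, and both above the control pool. Cells of the tolerance pool held more UMIs than those of the asthma pool. With each cell thinned to 2000 UMIs and shallower cells left out, the shares were 11.9% of 816 cells, 6.71% of 1579 and 0.0438% of 2283 in the tolerance, asthma and control pools, in the same order as without thinning. The intervals cover counting error only, and with 1 pool per treatment the difference between treatments was not tested.

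**Figure D1:**
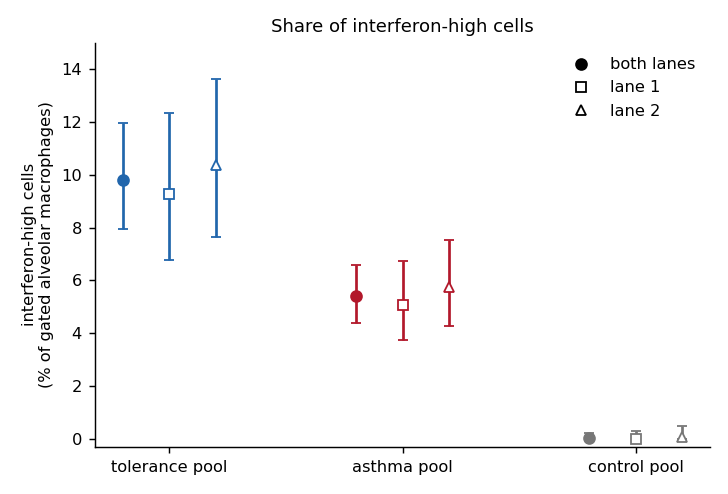
Share of interferon-high cells among the gated alveolar macrophages, in percent, for each pool with both lanes (filled circles) and for lane 1 (squares) and lane 2 (triangles), with 95% exact Clopper-Pearson intervals as bars. The lanes of the tolerance pool stand at 9.27% and 10.4%, those of the asthma pool at 5.08% and 5.75%, and the control pool has 1 such cell.

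The cut falls on a slope of cell numbers and not in a gap. Between 20 and 25 gate UMIs per 10000, just inside the cut, there were 20 cells of the tolerance, 24 of the asthma and 1 of the control pool. Between 15 and 20, just outside it, there were 28, 45 and 1. The class is therefore a range of a score. Among the interferon-high cells the median gate level was 35.3 UMIs per 10000 in the tolerance pool (highest 236) and 31.6 in the asthma pool (highest 233).

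Most cells held several of the 6 gate genes, though a single gene often made up most of their UMIs. At least 4 of the 6 were present in 72 of 87 cells of the tolerance pool (82.8%) and 69 of 94 of the asthma pool (73.4%), and all 6 in 26 and 17 cells. Only 2 and 4 cells had a single gate gene. A single gate gene made up over 50% of the gate UMIs in 35 cells of the tolerance pool (40.2%) and 46 of the asthma pool (48.9%). Isg15 contributed most, with 38.8% and 37.0% of the gate UMIs, and stood for over 50% of the gate UMIs of a cell in 34 and 38 cells. Isg15 was found in 97.7% and 97.9% of the interferon-high cells of the tolerance and asthma pools, against 35.5% and 33.7% of the cells below the cut in the same pools and 3.95% of control cells below the cut, whose median depth was 4940 UMIs. These shares follow from the rule. Cxcl10, a chemokine that draws activated T cells, was the least widespread, in 38 and 34 cells.

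The alveolar label was checked on 13 alveolar macrophage markers that the rule did not use, all of which were detected in the interferon-high cells of both pools. Their summed level was 74.1 UMIs per 10000 in the tolerance and 73.5 in the asthma pool, against 81.7 and 83.4 below the cut, and 79.05 in control cells below the cut. Markers of natural killer cells (8 genes) were all at 0 past the cut, as were the plasmacytoid DC gene Siglech and the neutrophil gene Ly6g. Ly6g was also at 0 below the cut in every pool, and Siglech in the tolerance and control pools. Their absence is therefore no check of the label, and other neutrophil markers were detected past the cut. The plasmacytoid DC list still summed to 16.5 and 16.2 in the tolerance and asthma pools, against 5.57 and 5.47 below the cut, almost all of it Bst2, which is itself induced by interferon. Xcr1, Cd209a and Ccr7 were at 0 by the rule.

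In the tolerance pool some markers of other cells were higher in the interferon-high cells. The summed level of 12 neutrophil markers was 5.96 UMIs per 10000, against 2.23 below the cut, with S100a8 at 2.41 against 0.830 and S100a9 at 2.96 against 0.919. The monocyte gene Ly6c2 stood at 0.909 against 0.256, and 12 interstitial macrophage markers summed to 8.09 against 4.80, with Pf4 at 1.30 against 0.434. Apoe, another of these 12 markers, stood at 3.05 against 1.09, and a single cell held 108 of its 171 UMIs past the cut. In the asthma pool the neutrophil sum was 0.466 against 1.06, Ly6c2 was at 0 against 0.0218, and the interstitial sum was 4.55 against 3.53. Pf4 was higher there too, at 0.555 against 0.271, and Apoe lower, at 0.133 against 0.537. Without cells holding a UMI of Apoe, Pf4, S100a8, S100a9 or Ly6c2, 48 of 87 cells of the tolerance and 68 of 94 of the asthma pool remained. Below the cut, 548 of 800 and 1245 of 1643 cells remained, so such UMIs were also common there. The part of such cells or transcripts in the results was not tested further.

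Of the markers of the class, the 3 gate genes had levels that follow from the rule. Levels are UMIs of a gene per 10000 UMIs of a class, and values of a pool are those of lane 1 and lane 2. Ifit1 (chromosome 19, 34640871 to 34650009, GRCm38) stood at 7.18 and 6.53 past the cut in the tolerance pool, against 0.281 and 0.342 below it, and at 8.66 and 7.15 in the asthma pool, against 0.373 and 0.259. Isg15 (chromosome 4, 156199424 to 156200818) stood at 17.3 and 20.97 against 1.59 and 1.72 in the tolerance pool and at 18.025 and 17.8 against 1.79 and 1.69 in the asthma pool. Rsad2 (chromosome 12, 26442746 to 26456452) stood at 8.05 and 7.97 against 0.162 and 0.167, and at 8.21 and 6.88 against 0.152 and 0.148. Cells of the control pool, at 0.0169 and 0.00919 for Ifit1, lay below the other pools even below the cut.

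The other markers, Gbp2 and Ch25h, were not in the gate. Gbp2 (chromosome 3, 142620602 to 142638008) stood at 4.99 and 6.31 past the cut in the tolerance pool, against 0.954 and 1.25 below it, and at 4.73 and 5.78 in the asthma pool, against 1.29 and 1.35, with 0.184 and 0.173 in the control pool below the cut. Ch25h (chromosome 19, 34473778 to 34475164) stood at 9.49 and 5.74 in the tolerance pool, against 4.73 and 3.76, and at 9.06 and 8.52 in the asthma pool, against 4.48 and 4.10, with 0.595 and 0.713 in the control pool. Past-cut and below-cut lanes did not overlap for either gene. Gbp2 was higher past the cut by 2.29 on the log2 scale (standard error, SE, 0.10, adjusted p = 7.19e-101) and Ch25h by 1.03 (0.08, adjusted p = 2.08e-32). Ch25h thus differed more between treatments than between classes, since its level below the cut in the asthma pool was already above that of the control pool.

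**Figure D2:**
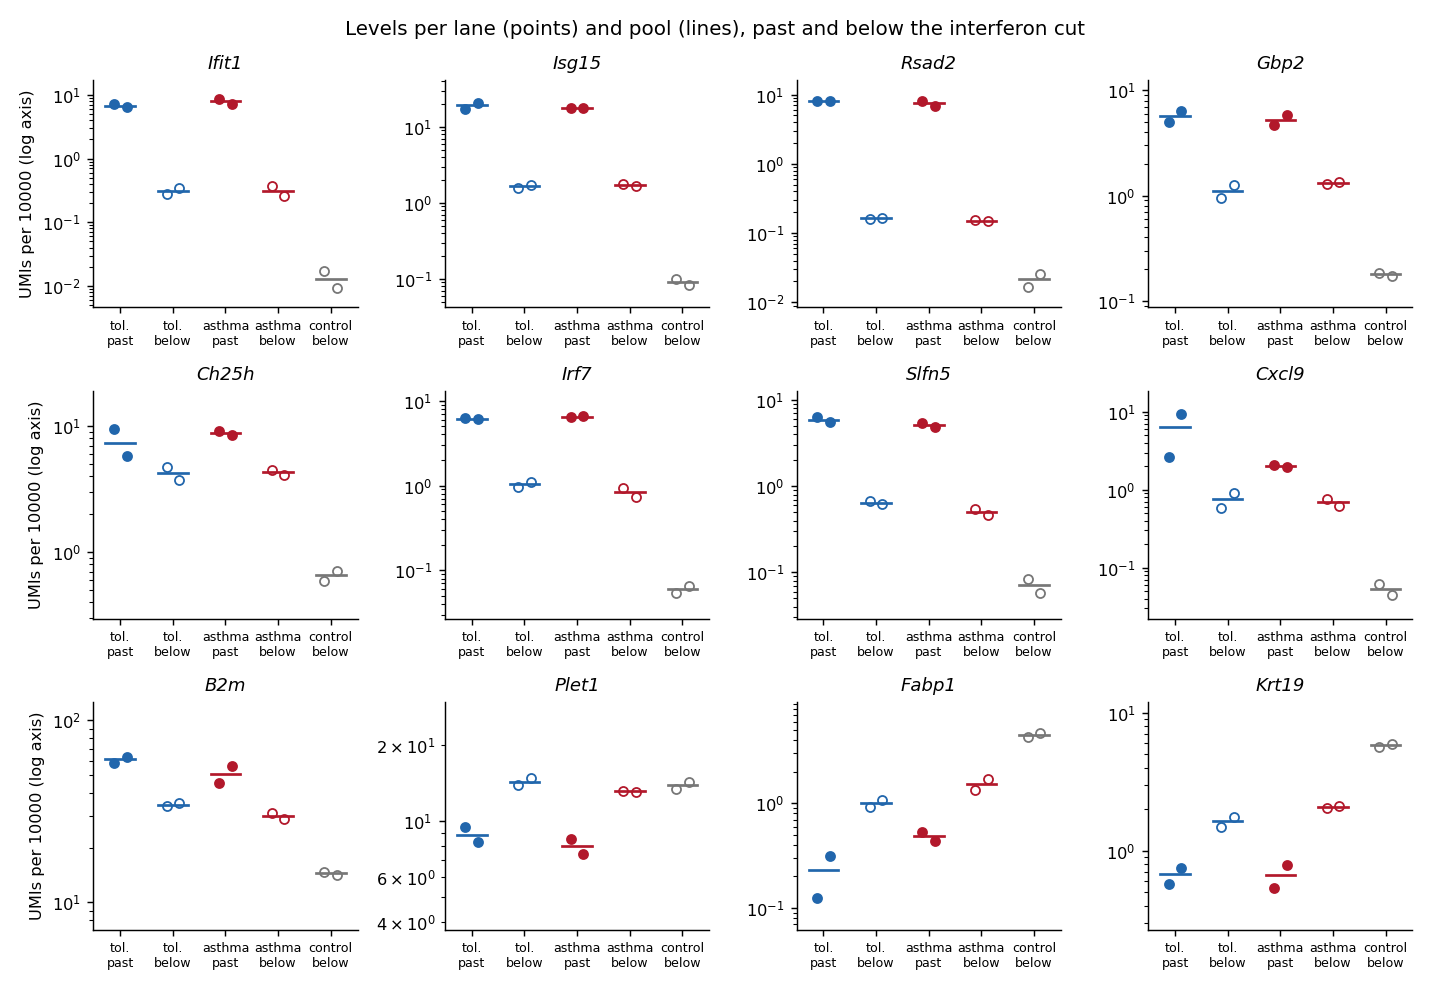
Levels of 12 genes in UMIs per 10000 on a log axis, with a point for each lane and a line for each pool, for cells past the cut (filled) and below it (open) in the tolerance, asthma and control pools. Ifit1, Isg15, Rsad2, Gbp2, Ch25h, Irf7, Slfn5, Cxcl9 and B2m lie higher past the cut and Plet1, Fabp1 and Krt19 lower in both pools. Ifit1, Isg15 and Rsad2 were used to choose the cells.

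Across the transcriptome, 834 of 9357 genes tested were called (8.91%), 650 higher in interferon-high cells (6.95%) and 184 lower (1.97%), at an adjusted p under 0.05 in edgeR's quasi-likelihood test with the pool as a block (n = 2 pools, tolerance and asthma). The control pool, with 1 such cell, could not enter. The direction was the same in both pools for 637 of the higher and all 184 of the lower genes. Over all genes tested the median log2 fold change was -0.02, and fitted values lie 0.11 above the mean of the log2 differences of the pools. With 1 residual degree of freedom a single spread was shared by all genes, so the p-values rest mostly on counting error. The numbers are therefore less firm than the p-values look: DESeq2 called 296 higher and 6 lower, and leaving out lane 2 left 226 and 9. Without the cells holding UMIs of Apoe and the other 4 genes above, 524 were higher and 120 lower. Cells chosen on 6 interferon genes also carry the genes that move with them, so calls on other interferon genes describe the class and are no independent evidence of a response.

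Antiviral effector genes of the type I interferon response were higher nearly throughout. Of 73 such genes in the files, 69 were tested and 68 were called higher (98.6%, against 6.95% of all genes tested). On this list 0 were called lower and 1 (Oas1g, log2 fold change 1.16) was not called. The median log2 fold change was 2.06. Between 63 and 69 were called higher over the 14 alternatives. Mx1, of the dynamin-like GTPases, stood at 1.28 and 1.41 past the cut in the tolerance pool, against 0.0382 and 0.0709 below it, and at 1.87 and 0.706 in the asthma pool, against 0.0736 and 0.0778. Its log2 fold change was 4.41 (SE 0.23, adjusted p = 1.03e-77). Ifi205, of the family with DNA-binding HIN domains, had 4.54, Oasl1, a relative of the oligoadenylate synthetases, 4.17, and Cmpk2, a mitochondrial nucleotide kinase gene next to Rsad2, 3.90.

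Slfn5, of the schlafen family, and Usp18, which removes ISG15 from proteins and dampens receptor signalling, were among the higher of these genes. Slfn5 stood at 6.40 and 5.52 in the tolerance pool, against 0.673 and 0.621, and at 5.44 and 4.85 in the asthma pool, against 0.539 and 0.460, a log2 fold change of 3.39 (SE 0.11, adjusted p = 1.34e-187). Usp18 had a log2 fold change of 3.38. Ifit3b (5.57) and Ifit1bl1 (5.37) had larger ones, but they are near copies of the gate genes Ifit3 and Ifit1, so the reads may have been split between them and their values are uncertain. Outside the lists, the long noncoding transcript AW112010 had the smallest p of all genes, at 32.6 and 27.8 against 6.85 and 7.16 in the tolerance pool and 20.3 and 30.3 against 6.67 and 7.14 in the asthma pool (log2 fold change 2.09, SE 0.07, adjusted p = 2.35e-211).

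Guanylate-binding proteins and immunity-related GTPases attack the membranes around intracellular microbes. Of 18 in the files 13 were tested, and all 13 were called higher (100%, against 6.95% of all genes tested). The median log2 fold change was 2.67. Iigp1 (3.70), Gbp5 (3.66) and Gbp4 (3.62) had the largest fold changes. Gbp5 stood at 1.03 and 1.07 in the tolerance pool, against 0.0763 and 0.0584, and at 0.758 and 0.574 in the asthma pool, against 0.0525 and 0.0979. The most abundant after Gbp2 was Ifi47, at 4.13 and 3.74 against 0.658 and 0.675 in the tolerance pool and 4.15 and 3.35 against 0.694 and 0.565 in the asthma pool. Summed over the family, the level was 23.9 past the cut in the tolerance pool and 22.8 in the asthma pool, against 4.43 and 4.49 below it, and 1.11 in the control pool.

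The interferons themselves were not seen. None of 21 ligand genes, Ifnb1, the Ifna genes, Ifng and the lambda genes among them, had a UMI in the 182 interferon-high cells. Over their 1020145 UMIs a count of 0 allows a level of up to 0.0294 per 10000 for each gene. The cells below the cut held 3 UMIs of these genes, and the 10088 cells past the quality filters held 26, of which 22 were Ifng and 1 was Ifnb1. Lower levels were not detectable at this depth.

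Of 5 interferon receptor genes tested, 1 was called. Ifngr1, a chain of the interferon-gamma receptor, was lower, at 0.825 and 0.879 past the cut in the tolerance pool, against 1.73 and 1.71, and at 1.03 and 1.24 in the asthma pool, against 1.63 and 1.57. Its log2 fold change was -0.64 (SE 0.15, adjusted p = 5.17e-04), and with DESeq2 it was not called (adjusted p = 0.354). Ifnar1 (-0.19, adjusted p = 0.873) and Ifnar2 (-0.20, adjusted p = 0.825), which bind type I interferons, and Ifngr2 (0.34, adjusted p = 0.219) were not called. Ifnar1 had at most 0.229 UMIs per 10000 in any lane, so small differences were not detectable.

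Signal transducers and sensors were higher in part. Of 31 genes of the JAK-STAT, IRF and SOCS families tested, 13 were called higher (41.9%, against 6.95% of all genes tested). On this list 0 were called lower, and the median log2 fold change was 0.24. Irf7, the factor that amplifies type I interferon production, stood at 6.23 and 6.09 in the tolerance pool, against 0.968 and 1.09, and at 6.42 and 6.53 in the asthma pool, against 0.933 and 0.736, a log2 fold change of 2.88 (SE 0.10, adjusted p = 5.66e-157). Stat2 was higher by 1.69 and Irf9, a part of the ISRE-binding complex, by 1.06. So was Socs1, an inhibitor of the Janus kinases, by 1.35, whereas Irf3 had a log2 fold change of -0.61 and Jak1 of 0.01 and neither was called. Of 23 sensors and adaptors of nucleic acid detection, 12 were called higher (52.2%) and 0 lower. Those for double-stranded RNA led, with Tlr3 (2.59), Ifih1 (2.15, which encodes MDA5), Ddx58 (2.08, RIG-I) and Dhx58 (1.99), while Tlr4, the receptor for lipopolysaccharide, had -0.13 and Mavs, the adaptor of RIG-I, -0.34, both not called. The number of sensors called fell to 4 with DESeq2.

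Antigen presentation by MHC class I was higher as a group. Of 24 genes tested, 21 were called higher (87.5%, against 6.95% of all genes tested) and 0 lower. The median log2 fold change was 1.03. Among the higher genes were the transactivator Nlrc5 (2.02), the peptide transporter Tap1 (1.74), its partner Tap2 (0.96) and the immunoproteasome subunits Psmb9 (1.23), Psmb10 (1.04) and Psmb8 (0.97). B2m, the light chain of all class I molecules, stood at 58.2 and 63.1 in the tolerance pool, against 34.0 and 35.0, and at 45.3 and 55.8 in the asthma pool, against 31.0 and 28.5, with 14.8 and 14.1 in the control pool. Its log2 fold change was 0.91 (SE 0.05, adjusted p = 9.99e-66). The chaperones of the endoplasmic reticulum Canx (0.04) and Pdia3 (0.20) were not called.

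For MHC class II the result depended on the pool term. Of 8 genes, 5 were called higher (62.5%, against 6.95% of all genes tested), and 0 without the pool term. H2-Ab1, a class II beta chain, stood at 17.4 and 20.4 in the tolerance pool, against 15.3 and 14.2, and at 18.9 and 15.2 in the asthma pool, against 9.97 and 10.1. Its log2 fold change was 0.68 (SE 0.07, adjusted p = 4.65e-23), and 0.0738 was its adjusted p without the pool term. The below-cut levels of the pools differ about as much as the classes do, and the asthma lanes past the cut overlap the tolerance lanes below it.

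Chemokine genes split. Of 18 tested, 8 were called higher (44.4%, against 6.95% of all genes tested) and 2 lower (11.1%, against 1.97%). Their median log2 fold change was 0.31. Cxcl9, which like Cxcl10 binds CXCR3 on T cells, stood at 2.60 and 9.29 in the tolerance pool, against 0.582 and 0.921, and at 2.10 and 1.94 in the asthma pool, against 0.762 and 0.623, a log2 fold change of 2.56 (SE 0.12, adjusted p = 5.08e-100). A single cell held 81 of its 359 UMIs in the tolerance pool, and without that cell the pool stood at 4.96. Ccl2, which recruits monocytes, stood at 1.77 and 3.58 against 0.973 and 1.36 in the tolerance pool and at 5.53 and 4.85 against 1.35 and 1.38 in the asthma pool (1.73, SE 0.11, adjusted p = 3.57e-51). Cxcl16 was higher by 1.30. Ccl6, which alveolar macrophages make in quantity, was lower, at 43.6 and 45.0 against 60.3 and 58.1 in the tolerance pool and 29.7 and 39.98 against 48.7 and 48.5 in the asthma pool, and its log2 fold change was -0.33 (SE 0.05, adjusted p = 3.06e-09, and 0.332 without the pool term). The other lower gene, Ccl5, had 5 UMIs past the cut and was called in 5 of 13 alternatives.

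Among genes of NF-kB and inflammatory cytokines, 23 of 45 were called higher (51.1%, against 6.95% of all genes tested) and 0 lower. The median log2 fold change was 0.62, and between 7 and 31 were called higher over the alternatives. Acod1, which makes itaconate, led with 3.35, followed by the cytokine genes Il27 (2.72) and Il15 (2.30) and by Il18bp (1.75), whose product neutralizes IL-18. Among the inflammatory cytokines, Il6 stood at 0.454 and 0.910 against 0.391 and 0.354 in the tolerance pool and at 0.580 and 1.10 against 0.410 and 0.610 in the asthma pool. It was called higher (log2 fold change 0.93, SE 0.20, adjusted p = 7.16e-05), though lane 1 past the cut lay below lane 2 below it in the asthma pool. Il1b stood at 15.5 and 11.8 against 14.4 and 14.7 in the tolerance pool and at 17.5 and 12.4 against 12.6 and 13.5 in the asthma pool (log2 fold change 0.15, adjusted p = 0.197), with overlapping lanes, and Tnf (0.32, adjusted p = 0.346) and Il1a (0.39, adjusted p = 0.0653) were not called either.

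Surface molecules that act on lymphocytes were higher in 12 of 22 cases (54.5%, against 6.95% of all genes tested) and lower in 1 (4.55%, against 1.97%). The costimulatory receptor gene Cd40 stood at 0.784 and 1.00 against 0.0525 and 0.0667 in the tolerance pool and at 0.580 and 0.485 against 0.0447 and 0.0502 in the asthma pool, a log2 fold change of 3.82 (SE 0.30, adjusted p = 6.48e-36). Cd86, a ligand of CD28, was higher by 1.15 and Cd274, which encodes PD-L1, by 1.01, whereas Cd80 had -0.27 and was not called. Tnfsf10, which encodes the death ligand TRAIL, was higher by 2.26, on 10 UMIs past the cut in each pool, and was not called by DESeq2 (adjusted p = 0.0796). Vsir, the checkpoint gene for VISTA, was the lower one (-0.73), a call lost with DESeq2, with either lane left out and without the pool term.

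Of 25 genes of cell death and the inflammasome, 7 were called higher (28.0%, against 6.95% of all genes tested) and 0 lower. Among the higher genes were Mlkl (1.84), the executor of necroptosis, and Casp4 (1.79), which senses cytosolic lipopolysaccharide (its mouse product is caspase-11). Casp1 (0.87, adjusted p = 0.0588 with DESeq2) was another, while Nlrp3 (0.17) and Gsdmd (0.59) were not called. Of 15 genes of Fc and complement receptors, 7 were higher (46.7%) and 1 lower (6.67%, against 1.97% of all genes tested). Fcgr1, which encodes CD64, was higher by 1.88 (SE 0.14), the complement factor gene Cfb by 1.96, and C5ar1, the receptor for C5a, was lower, with a log2 fold change of -1.27 (SE 0.24, adjusted p = 2.96e-06), which DESeq2 did not call (adjusted p = 0.0702). C3ar1 (1.43) rests on 21 UMIs past the cut. Ifitm3, which keeps viruses from leaving endosomes, was the only one called of 5 genes of its family tested. It stood at 7.59 and 7.31 against 2.61 and 2.21 in the tolerance pool and at 5.76 and 6.44 against 0.898 and 1.23 in the asthma pool, a log2 fold change of 2.15 (SE 0.10, adjusted p = 7.43e-102).

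**Figure D3:**
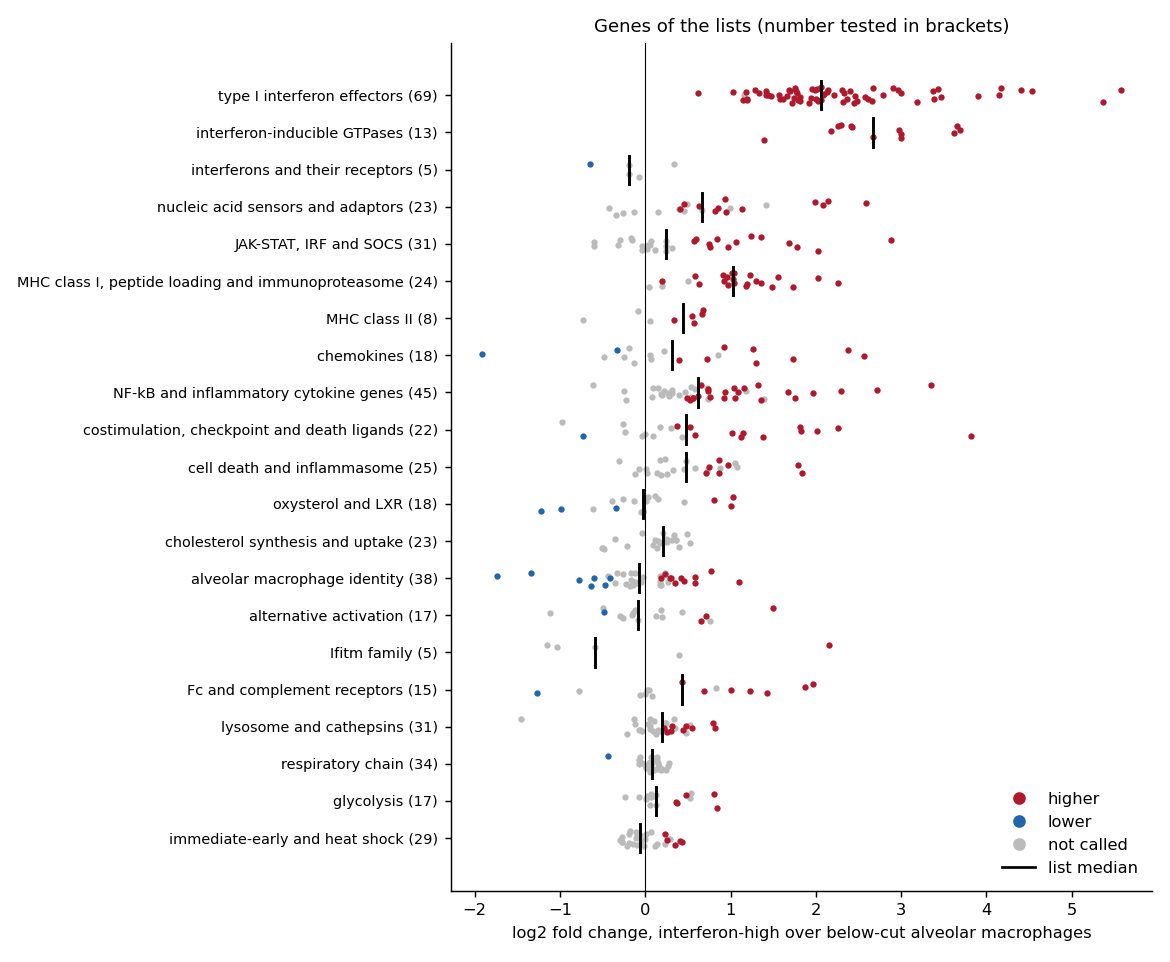
Log2 fold changes of interferon-high over below-cut alveolar macrophages for each gene tested on 21 lists, coloured by call (red higher, blue lower, grey not called), with the median of each list as a black line. The medians are 2.06 for type I interferon effectors, 2.67 for GTPases and 1.03 for MHC class I, against -0.02 over all genes tested.

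Alveolar macrophage genes moved in both directions. Of 38 genes tested, 11 were called higher (28.9%, against 6.95% of all genes tested) and 7 lower (18.4%, against 1.97%), with a median log2 fold change of -0.07. Over the alternatives 2 to 11 were called higher and 3 to 8 lower, and their summed level was 189 past the cut in the tolerance pool and 193 in the asthma pool, against 201 and 208 below it, and 235 in the control pool. The largest decrease was in Fabp1, a fatty acid binding protein gene, at 0.124 and 0.314 against 0.925 and 1.09 in the tolerance pool and 0.535 and 0.441 against 1.35 and 1.70 in the asthma pool, with 4.30 and 4.66 in the control pool. It fell by 1.73 on the log2 scale (SE 0.21, adjusted p = 1.97e-14). Krt19, a keratin gene, stood at 0.578 and 0.753 against 1.498 and 1.77 in the tolerance pool and at 0.535 and 0.794 against 2.03 and 2.11 in the asthma pool, with 5.69 and 5.99 in the control pool (log2 fold change -1.34, SE 0.17, adjusted p = 4.58e-14).

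Plet1, an epithelial and macrophage surface protein gene, differed from these in that the control pool was not apart. It stood at 9.49 and 8.29 against 13.8 and 14.8 in the tolerance pool and at 8.48 and 7.46 against 13.2 and 13.1 in the asthma pool, with 13.4 and 14.3 in the control pool (-0.60, SE 0.07, adjusted p = 1.2e-14). Fabp1, Krt19 and Plet1 were the 3 of 23 lower genes examined by name that were called under every alternative. Siglecf, the sialic acid receptor by which these cells are often gated, was called lower (-0.78, adjusted p = 0.00864) on 40 UMIs past the cut, and not by DESeq2 (adjusted p = 0.743). Pparg, the factor that sets alveolar macrophage identity, had -0.43 and was not called. Among the higher ones were Flt1 (0.77), a receptor for vascular endothelial growth factor, and Slc39a2 (1.09, adjusted p = 0.0639 with DESeq2), a zinc transporter gene.

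Calls among genes of oxysterols and the liver X receptors went both ways, and a link of Ch25h to the others was not tested. Of 18 genes, 3 were called higher (16.7%, against 6.95% of all genes tested) and 3 lower (16.7%, against 1.97%). The higher ones were Ch25h, Apoe and the cholesterol transfer gene Npc2 (0.81), and the lower ones Mylip (-1.22), Scd2 (-0.99) and Nceh1 (-0.34). None of these 3 lower genes was called by DESeq2 (adjusted p = 0.747 for Mylip, 0.188 for Scd2 and 0.715 for Nceh1) or without lane 2. The sterol exporters Abca1 (-0.26) and Abcg1 (0.03) were not called. None of 23 genes of cholesterol synthesis and uptake was called by edgeR, with a median log2 fold change of 0.21. The call of Apoe rests on few cells and turned direction under several settings. It stood at 0.371 and 5.09 past the cut in the tolerance pool, against 1.02 and 1.15, and at 0.134 and 0.132 in the asthma pool, against 0.454 and 0.615, and a single cell held 108 of its 171 UMIs in the tolerance pool. Without that cell the pool stood at 1.123.

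Among metabolic and housekeeping groups, 0 of 34 genes of the respiratory chain were called higher and 1 lower (2.94%, against 1.97% of all genes tested). The lower one, Ndufa4 (-0.44), was not called by DESeq2 (adjusted p = 0.172). Of 17 genes of glycolysis 5 were higher (29.4%, against 6.95% of all genes tested), with a median log2 fold change of 0.12. Of 31 genes of lysosomes and cathepsins 9 were higher (29.0%), led by Ctsc (0.82), which makes cathepsin C, with a median of 0.20. Of 29 immediate-early and heat shock genes 5 were higher (17.2%), led by Klf6 (0.43). With DESeq2 these 3 counts became 0, 6 and 1, and without lane 2 they were 0, 2 and 0. Of 17 genes of alternative activation, 3 were higher (17.6%) and 1 lower (5.88%). Mmp14 (1.49), a membrane protease gene, led the higher ones. Fn1, fibronectin, was lower (-0.48), a call that was lost with DESeq2 (adjusted p = 0.99984), without lane 2 and without the pool term.

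Outside the lists, the genes with the largest increases included Ifi206 (3.65), Serpina3g (3.35), a serine protease inhibitor gene, Fam26f (3.06) and Setdb2 (2.85), a lysine methyltransferase gene. Fam26f stood at 1.24 and 1.57 against 0.110 and 0.238 in the tolerance pool and at 1.07 and 1.28 against 0.181 and 0.136 in the asthma pool. Edn1, which encodes endothelin, was higher by 2.60 in the fit, but mostly in the asthma pool, at 0.357 and 0.838 against 0.0630 and 0.0603, while the tolerance pool had 0.0413 and 0.0942 against 0.0620 and 0.0458. Among the genes with the largest decreases, Nup35, a nucleoporin gene, had 0 UMIs past the cut against 121 below it in both pools, at least 3.32-fold lower. Abcd4 had 0 against 105, at least 2.88-fold lower, with a count of 0 over both pools set to 3. Angptl4, a lipase inhibitor gene, had a log2 fold change of -2.91, and DESeq2 called none of these 3 genes.

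The ISRE core seen in the marker promoters was looked for in all promoters. Of 535 higher genes with a RefSeq window, 86 had at least 1 match within the 300 bases (16.1%), against 215 of 6936 tested genes that were not called (3.1%) and 1079 of all 27025 windows (3.99%). The share was 19.0% for genes with a log2 fold change between 1 and 2 and 8.90% for those below 1. Among lists it was 43.9% of 57 type I effectors and 25% of 20 MHC class I genes. The GAS core was found in 10.8% of higher genes, 8.28% of those not called and 9.55% of all windows. Genes above a log2 fold change of 2 and genes called lower had windows for under 80% of their members, and no share is given for them. The shares are descriptions, and the gate itself chose genes of this kind.

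The gate level and the other interferon genes ran together over the whole range and not only at the cut. From cells without a gate UMI through those above 0 to 5, 5 to 10, 10 to 20, 20 to 40 and 40 or more per 10000, type I effectors (without gate genes) summed to 36.8, 67.6, 108, 139, 173 and 224 UMIs per 10000 in the tolerance pool. In the asthma pool they summed to 35.5, 62.1, 88.0, 120, 152 and 217. Control cells without a gate UMI stood at 22.2 and those above 0 to 5 at 26.5, below OVA-exposed cells of the same bins. Irf7 ran from 0.249 to 7.56 in the tolerance pool and from 0.247 to 8.13 in the asthma pool over the same bins. The smallest of these bins held 35 cells.

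Plet1 and Fabp1 ran the other way. Plet1 had 14.5, 15.7, 11.03, 12.1, 10.6 and 6.75 UMIs per 10000 over the 6 bins in the tolerance pool and 13.1, 14.0, 12.9, 10.9, 8.45 and 7.26 in the asthma pool. Fabp1 was at 1.43 in the lowest and 0.232 in the highest bin of the tolerance pool and at 2.05 and 0.434 in those of the asthma pool. Its largest step was between cells without a gate UMI and those above 0 to 5, well below the cut. These 2 bins also differed in depth, with median UMIs of 4854 and 6492 in the tolerance pool and 4017 and 5348 in the asthma pool. The part of depth in this step was not tested. Ch25h was uneven, with 8.29 and 6.29 in the 2 highest bins of the tolerance pool and 7.78 and 10.2 in those of the asthma pool.

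**Figure D4:**
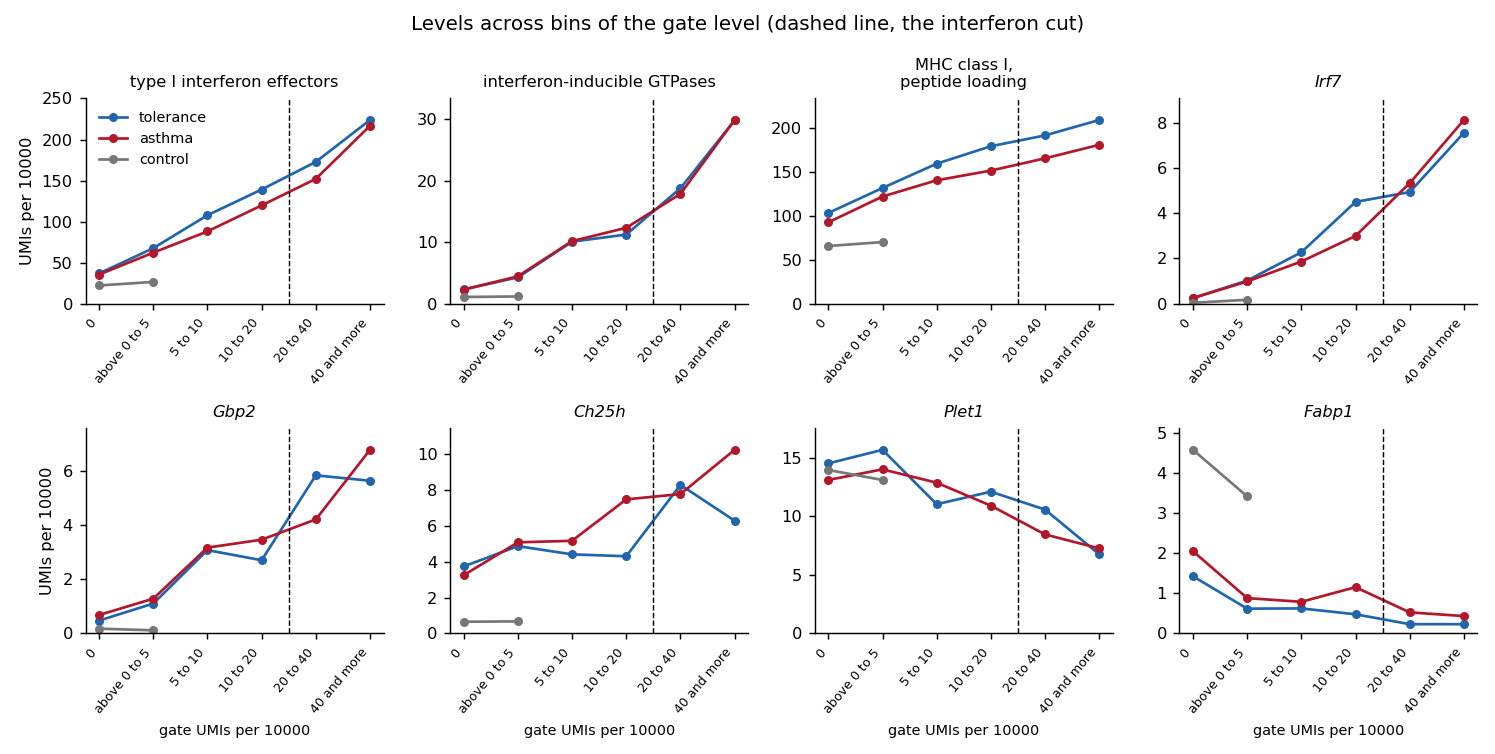
Summed levels of 3 gene lists and levels of 5 genes, in UMIs per 10000, over 6 bins of the gate level in the tolerance (blue), asthma (red) and control (grey) pools, with the cut as a dashed line. Type I effectors climb to 224 and 217 in the highest bin of the tolerance and asthma pools, and Plet1 is lowest there, at 6.75 and 7.26. The control pool had cells enough for the lowest bins only.

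The surface tag for CLEC12A, a lectin of myeloid cells, was a readout that the rule did not use. Interferon-high cells carried a mean of 92.9 tag counts per cell in the tolerance pool, against 64.9 below the cut, and 52.0 in the asthma pool, against 44.0. The lanes gave 78.7 and 106 against 57.6 and 72.5 in the tolerance pool and 50.4 and 53.4 against 39.7 and 48.4 in the asthma pool, higher past the cut in both lanes of both pools. Per 10000 RNA UMIs the tag stood at 144 against 115 and at 108 against 92.7, and control cells below the cut had 34.8 per cell and 65.7 per 10000. The pools differed as much as the classes did. With 2 pools no exact test can reach 0.05, and none was made. The transcript, Clec12a, which was looked up after the tag values were seen, was called higher (log2 fold change 0.69, SE 0.18, adjusted p = 0.00221). It was not among the genes examined under the alternatives, so whether this call holds under them is not known.

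Between treatments, few genes differed at least 2-fold in both lanes between the interferon-high cells of the tolerance and asthma pools. Of 1669 genes with at least 100 UMIs, 6 were at least 2-fold higher in the tolerance pool in both lanes (0.359%) and 1 lower (0.0599%). Below the cut, where more genes reached that count, 20 of 7905 were higher (0.253%) and 6 lower (0.0759%). Isg15 was at 19.4 UMIs per 10000 (exact Poisson interval 18.3 to 20.6) in the tolerance and 17.9 (16.7 to 19.2) in the asthma pool. It is a gate gene under the same cut in both pools, so its like levels follow largely from the rule. Gbp2, which moves with the gate genes, was at 5.74 (5.13 to 6.40) and 5.26 (4.61 to 5.97). Serpina3g was higher in the tolerance pool, at 3.83 (3.34 to 4.38) against 0.932 (0.672 to 1.26), and this was also seen below the cut, at 0.338 against 0.149. Ccl17, a chemokine for T cells with CCR4, stood at 7.77 against 2.17, and at 7.21 against 4.33 below the cut, and the elastase gene Mmp12 at 5.15 against 1.35, and at 4.79 against 2.69. Cxcl3, a neutrophil chemokine gene, stood at 7.17 (6.48 to 7.90) against 2.73 (2.27 to 3.26) past the cut and at 1.99 against 2.35 below it. A single cell held 64 of its 402 UMIs in the tolerance pool and another 37 of its 123 in the asthma pool. The other 2 higher genes were Ccdc80 (2.09 against 0.865) and Apoe, and the lower one was the noncoding gene Gm26917 (1.36 against 4.08). Genes outside this count may still differ. Cxcl9 was not 2-fold apart in both lanes, but stood at 6.40 (5.76 to 7.10) in the tolerance and 2.02 (1.63 to 2.48) in the asthma pool. A single cell held 81 of its 359 UMIs in the tolerance pool. These are values of 1 pool each, without a test, and markers of neutrophils and monocytes were also higher in the tolerance cells, whose part in these values was not tested.

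Cells past the interferon cut were not particular to alveolar macrophages. Among cells with 5 or more UMIs of C1q genes, 12.5% of the tolerance pool (interval 9.93 to 15.4, 602 cells), 5.87% of the asthma pool (3.90 to 8.43, 460 cells) and 0 of 87 control cells passed the same cut of 20 gate UMIs per 10000. Among cells with Cd209a the shares were 7.72%, 4.15% and 0.426%, and among cells with Xcr1 10.8%, 7.81% and 0 of 88. Among cells with Ccr7 they were 10.1%, 8.66% and 1.13%. In these 4 classes the order of the pools was the same as in alveolar macrophages, and the intervals of alveolar macrophages (7.93 to 11.96 in the tolerance and 4.39 to 6.58 in the asthma pool) overlap those of each of them. The classes differed in depth, with tolerance medians of 7337.5 (C1q), 7933 (Cd209a), 8098 (Xcr1) and 2898 (Ccr7) UMIs, against 5454 in alveolar macrophages. These shares were not thinned to a common depth. Among cells with Cd79 genes the cut was passed by 0 of 43 cells of the tolerance pool, which allows a share of up to 6.98%, by 1 of 77 of the asthma pool and by 0 of 41 of the control pool. Among the remaining cells the shares were 11.9%, 6.81% and 2.93%, the last on 11 of 376 cells with a median of 2439.5 UMIs.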

How the data were processed

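Messenger RNA and antibody tags of single sorted lung cells were measured on 2 lanes, each holding the hashtagged cells of 3 pools. Per the labels, Cell Ranger 3.1.0 (reference mm10) and Seurat 3.1.5 were the authors' tools, and they deposited whole-number UMI counts, not normalized, for 31053 genes and 4 tags per matrix. Here the cells were filtered and gated with Python 3.11.15, scanpy 1.11.5 and scipy 1.17.1. The UMI sums of each pool and class entered the quasi-likelihood test of edgeR 4.0.16 in R 4.3.3, with TMM scaling, filterByExpr, the pool as a block, and p-values adjusted over all genes tested by Benjamini-Hochberg. The 21 genes of the gate were left out of the test. Sums rather than cells were tested because cells of a pool are not replicates. Cell types came from a gate on marker genes, and names may differ from those of the study.

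The members, lists and tests were chosen with earlier results of these data known. Named genes were the 5 markers, up to 5 called genes per list with the largest absolute log2 fold change and the same sign in both pools, up to 10 in each direction outside the lists among genes with at least 100 UMIs, and the interferon receptors. Other genes, among them AW112010, Slfn5, Usp18, Plet1, B2m, Ccl6 and members that were not called, were chosen for their role or after their values were seen. Cells marked as doublets by Scrublet came to 0.0585% and 0.0806% of the lanes, so its calls were not used, and removal of the highest 2% of its scores was an alternative. The other alternatives were the cut, the depth of cells, the lanes and pools, RLE scaling, DESeq2 1.42.0, the filter and the block. Those without cells holding Apoe, Pf4, S100a8, S100a9 or Ly6c2, and without the cell with most UMIs of a gene, were added after the data were seen. The fit was tested on simulated data with known changes. Counts were drawn for each pool and class with the same spread for every gene and without UMIs clumped in single cells. The numbers that follow hold for that setting and give no error rate for the real data. It recovered 27 of 48 genes set higher by a log2 of 1 and 18 of 47 set lower by it. For a log2 of 2 it recovered 47 of 50 higher and 33 of 50 lower genes. Of 9186 unchanged genes 1 was called. Genes that were not called may therefore still differ, and decreases were missed more often than increases. Nothing says that the lanes hold separate mice, so they measure technical spread only.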

Additional observations from a re-analysis of the deposited data

How the results depend on the processing

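The order of the shares in the tolerance, asthma and control pools was the same under each alternative run. With a cut of 10 UMIs per 10000 they were 16.9%, 12.3% and 0.212%, with a cut of 40 they were 4.06%, 2.01% and 0%, and thinning gave 6.71% in the asthma pool. Single lanes gave 0% to 0.0867% in the control pool. The 650 genes called higher became 296 with DESeq2, 377 without the replicate block and 226 to 472 with a lane left out. The 184 called lower became 6 with DESeq2, 39 without the replicate block, 120 without cells holding Apoe, Pf4, S100a8, S100a9 or Ly6c2 and 9 to 108 with a lane left out. The other fits gave 499 to 672 higher and 129 to 194 lower. Of 116 called genes examined by name, 51 of 93 higher and 3 of 23 lower were called under every alternative. The direction reversed for C3ar1 (-0.80 without lane 2 and 2.12 without lane 1, -0.31 without cells holding Apoe and the other 4 genes) and for Apoe (-1.45 without lane 2 and 1.56 without lane 1, -0.075 with DESeq2, -1.90 without the tolerance pool, -1.05 without the cell with most Apoe UMIs). The cause was not tested. The control pool had 1 interferon-high cell, so it could not enter the fit, and without the asthma or the tolerance pool there is a value and no test. Pairing is by pool, since the classes compared came from the same pools, and it is part of the test.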
